A study of Glycine max with 12 samples.

Results

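Seeds of soybean (Glycine max) were profiled for 9 genes that encode transcription factors of embryo maturation. They are both copies of LEC1, ABI3, WRI1 and AREB3, and a single bZIP67 gene. The genes were taken by a list of identifiers from a table of 47095 genes, and all 9 were present and passed the filter on low counts. The wild type was the cultivar Jack, and the other genotypes were transgenic soybean overexpressing GmZF351, GmZF392 or GmNFYA, with 3 libraries of seed RNA per genotype and 12 in all. All libraries came from a stage called H3, which the sources used here do not define. The libraries of each overexpressor share a code in their titles, so they may come from 1 transgenic line, and an effect of such a line cannot be told apart from that of the overexpressed gene. The promoter of the transgenes and the age of the plants are not given in the sources used here.

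As background, seed maturation in plants is driven by a small network of transcription factors first worked out in Arabidopsis. LEC1 is a seed form of the NF-YB subunit of nuclear factor Y, a complex that also needs an NF-YA and an NF-YC subunit to bind DNA. ABI3 is a B3-domain factor through which abscisic acid switches on storage protein and late embryogenesis genes. AREB3 and bZIP67 are basic leucine zipper factors of the abscisic acid response, and in soybean embryos LEC1 is known to act with AREB3, bZIP67 and ABI3 on maturation genes. WRI1 is an AP2-domain factor that turns on glycolysis and fatty acid synthesis for seed oil. GmZF351 and GmZF392 are zinc finger proteins and GmNFYA is an NF-YA subunit, and all are known as regulators of seed oil.

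Libraries held 17809547 to 22652420 counted fragments, and a gene with no count would still allow 0.136 to 0.181 CPM (counts scaled to the library total), so even the lowest of the 9 genes lay far above the floor of 3 counts. Each overexpressed gene had its highest level in its own genotype in every library, and the embryo markers (glycinins, conglycinin, oleosins) were expressed in all 12. Libraries differed in a trend with exon length: in GmNFYA library 1 the longest 25% of genes stood 0.60 (log2) above the shortest 25% relative to the mean of 12 libraries, and in GmZF351 library 2 it stood 0.69 below. In bulk seed RNA, fewer cells of a type and less RNA per cell cannot be told apart.

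None of the 9 genes passed the test between any genotypes. In the GmZF351 overexpressor 0 of 9 passed the adjusted p threshold of 0.05 against the wild type, where 2.17% of the 34252 tested genes did. In the GmZF392 overexpressor 0 of 9 passed, against a background of 2.2%, and in the GmNFYA overexpressor 0 of 9, against 1.56%. A single test across all 4 genotypes called 3.36% of genes and 0 of the 9, with adjusted p from 0.486 for WRI1A to 0.986 for AREB3-2 (edgeR's quasi-likelihood test with Benjamini-Hochberg adjustment). At an unadjusted p under 0.05, 0 of the 27 gene by overexpressor comparisons against the wild type passed, and DESeq2 called 0 as well. The median log2 fold change of the 9 was 0.04, 0.01 and 0.14 in the GmZF351, GmZF392 and GmNFYA overexpressors, beside 0.01, -0.01 and -0.01 over all tested genes. At each gene the 95% interval of the fold change bounded what could have been missed, and across the 27 comparisons the intervals ran from 0.709-fold to 1.75-fold. A change of 2-fold in either direction lay outside every one of them, and a change inside these intervals cannot be told apart from none with these libraries. All comparisons with the wild type share its 3 libraries.

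**Figure D1:**
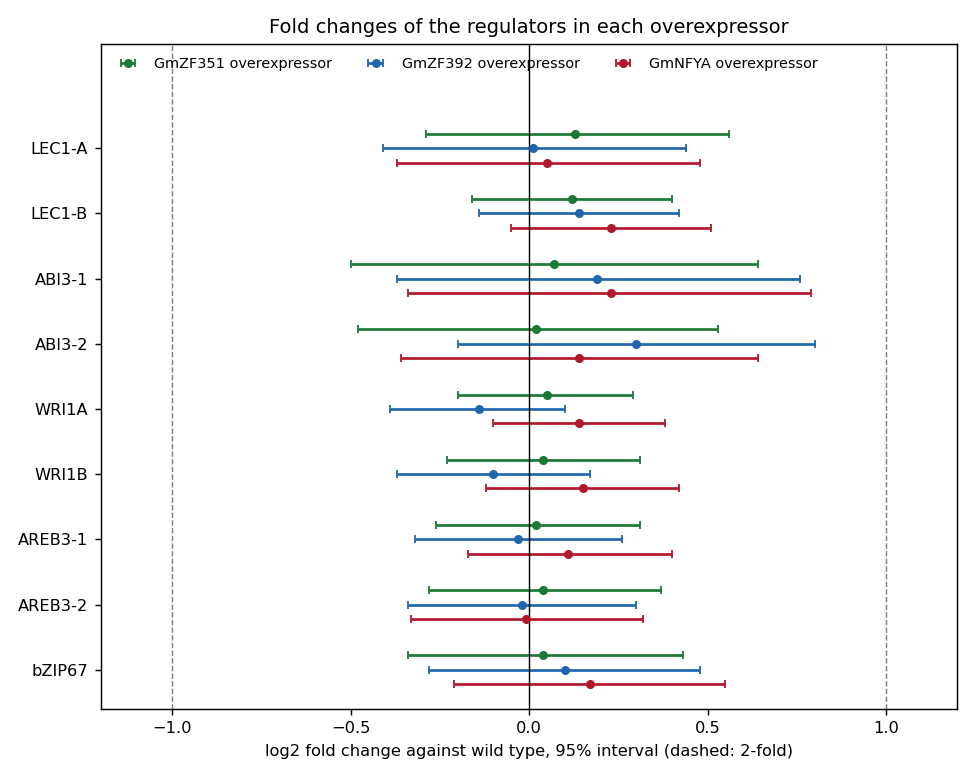
Log2 fold change of each regulator in the 3 overexpressors against the wild type, with its 95% interval from the fit of 12 libraries. Every interval lies within -0.50 to 0.80, inside the dashed lines that mark 2-fold, and every interval includes 0.

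LEC1 was by far the most expressed of these regulators. LEC1-B (Glyma.17G005600.Wm82.a4.v1, chromosome 17, 528321 to 530634, minus strand, 922 exon bases) stood in the wild type at 356 ± 21.9 FPKM (fragments per kilobase of exon, scaled to the library total; SD, n = 3), higher than 99.5% of tested genes. LEC1-A (Glyma.07G268100.Wm82.a4.v1, chromosome 7, 44451147 to 44453665, plus strand, 1117 exon bases) stood at 167 ± 26.4 FPKM, at the 98.2 percentile. The LEC1 copies together made 523 ± 48.3 FPKM in the wild type, 571 ± 52 in the GmZF351, 561 ± 33.6 in the GmZF392 and 591 ± 57.1 in the GmNFYA overexpressor. These ranges overlap.

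LEC1-B was measured at 308, 349 and 329 CPM in the 3 wild-type libraries. It was at 340, 362 and 372 CPM in the GmZF351, at 360, 348 and 377 CPM in the GmZF392, and at 359, 400 and 397 CPM in the GmNFYA overexpressor. All GmNFYA libraries lay above all wild-type libraries, and the other overexpressors overlapped the wild type. The mean in the GmNFYA overexpressor was 385 ± 22.9 against 329 ± 20.2 CPM, a log2 difference of 0.23 (95% interval -0.05 to 0.51, adjusted p = 0.535), which did not pass the test. Libraries without overlap were common in this comparison, at 21.9% of all tested genes, and 2 of the 9 regulators (LEC1-B and bZIP67) showed it. With the exon-length trend removed the LEC1-B difference was 0.43 on the log2 scale (adjusted p = 0.138).

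LEC1-A varied more between libraries of the same genotype. It stood at 157, 216 and 186 CPM in wild-type seeds and at 165, 254 and 195 CPM in the GmZF351 overexpressor. In the GmZF392 overexpressor it stood at 183, 171 and 211 CPM and in the GmNFYA overexpressor at 152, 211 and 218 CPM. The range of each genotype overlapped that of every other, and the fitted differences from the wild type were log2 0.13, 0.01 and 0.05 (SE 0.20 each; adjusted p = 0.884, 0.987 and 0.934).

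ABI3 came next, and it was the gene pair with the widest spread. ABI3-1 (Glyma.08G357600.Wm82.a4.v1, chromosome 8, 46375459 to 46380070, minus strand, 3617 exon bases) stood at 46 ± 6.99 FPKM in the wild type. ABI3-2 (Glyma.18G176100.Wm82.a4.v1, chromosome 18, 42184618 to 42189176, minus strand, 4454 exon bases) stood at 26.2 ± 2.63 FPKM. Exons cover 78.4% of the span of ABI3-1 and 97.7% of that of ABI3-2 in the annotation used for counting. Exon bases pool all annotated exons of a gene, with 19 entries for ABI3-1 and 58 for ABI3-2. They may thus exceed the length of a single transcript. The FPKM, copy share and length class of ABI3 rest on these lengths.

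For ABI3-1 the wild-type libraries gave 140, 169 and 190 CPM and the GmNFYA libraries 216, 190 and 178 CPM. The GmZF351 libraries gave 236, 118 and 170 CPM, and the GmZF392 libraries 227, 224 and 120 CPM. The highest and lowest of all 12 libraries, 236 and 118 CPM, thus both came from the GmZF351 overexpressor, a ratio of 1.99 within a genotype. ABI3-2 had the same 2 lowest libraries, with 111, 109 and 130 CPM in wild-type seeds and 144, 120 and 121 CPM in the GmNFYA overexpressor. It read 153, 89 and 113 CPM in the GmZF351 and 156, 181 and 94.7 CPM in the GmZF392 overexpressor. No overexpressor separated from the wild type at either copy.

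The spread of ABI3 ran with the exon-length trend of the libraries. Both copies have exons in the longest 25% of genes (above 2814.25 bases), and their 4 highest libraries were the 4 libraries in which long genes stood highest. Their 2 lowest libraries, GmZF351 library 2 and GmZF392 library 3, were the 2 in which long genes stood lowest. In these 2 libraries ABI3-1 lay 0.58 and 0.56 below its mean (log2), while the longest 25% of genes lay 0.31 and 0.17 below. LEC1-A, which belongs to the shortest 25% (up to 1313 bases), was at its highest in GmZF351 library 2 and at its lowest in GmNFYA library 1, the ends of the same order. LEC1-B, also in the shortest 25%, did not follow it: it was lowest in wild-type library 1 and highest in GmNFYA library 2.

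**Figure D2:**
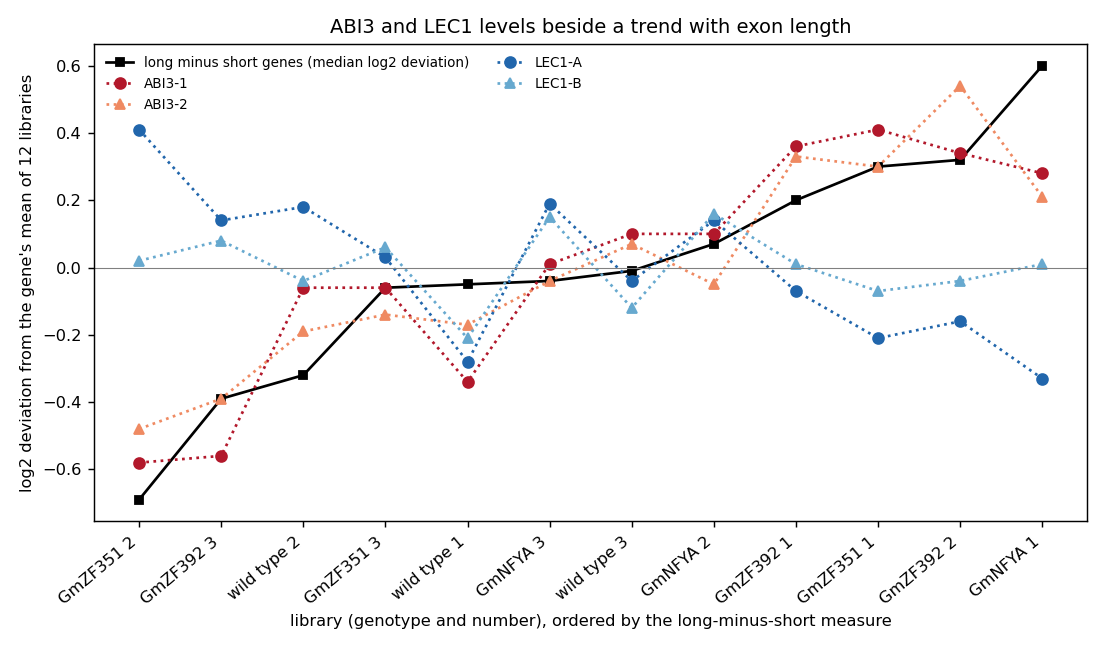
Log2 deviation of ABI3 and LEC1 levels from each gene's mean, for 12 libraries ordered by how far the longest 25% of genes lies above the shortest (black squares). Both ABI3 copies are lowest in GmZF351 library 2 and GmZF392 library 3, and LEC1-A is highest in GmZF351 library 2 and lowest in GmNFYA library 1.

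This trend was removed by an offset per gene and library, fitted on exon length. The standard error of the log2 fold change then fell from 0.26 to 0.18 for ABI3-1 and from 0.23 to 0.13 for ABI3-2. For LEC1-A it fell from 0.20 to 0.12. It went from 0.15 to 0.13 for AREB3-2 and from 0.13 to 0.12 for AREB3-1, stayed at 0.11 for WRI1A, and went from 0.13 to 0.14 for LEC1-B, from 0.12 to 0.14 for WRI1B and from 0.18 to 0.19 for bZIP67. The fold changes of ABI3-2 against the wild type were then 0.01, 0.18 and -0.04 on the log2 scale in the GmZF351, GmZF392 and GmNFYA overexpressors, and 0.02, 0.30 and 0.14 without the correction. Leaving out both low libraries instead, a step chosen after seeing the data, gave ABI3-1 0.44 (adjusted p = 0.22) and ABI3-2 0.53 (adjusted p = 0.123) in the GmZF392 overexpressor. ABI3 passed the threshold under neither treatment.

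WRI1 varied less than ABI3 between libraries. WRI1A (Glyma.08G227700.Wm82.a4.v1, chromosome 8, 18614110 to 18619829, minus strand, 2195 exon bases) stood at 25.3 ± 1.18 FPKM in the wild type, and its ratio of highest to lowest library was 1.34. WRI1B (Glyma.15G221600.Wm82.a4.v1, chromosome 15, 40815889 to 40822330, plus strand, 2726 exon bases) stood at 16.6 ± 0.321 FPKM. WRI1B overlaps 1 other gene of the table, and fragments in the overlap may not be assigned to either.

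WRI1A was at 58.2, 55.5 and 53 CPM in wild-type seeds and at 55.1, 59.2 and 57.8 CPM in the GmZF351 overexpressor. It was at 51, 48.3 and 51.5 CPM in the GmZF392 and at 56.5, 62.5 and 64.8 CPM in the GmNFYA overexpressor. All GmZF392 libraries lay below all libraries of the other genotypes. Against the wild type this difference, 50.3 ± 1.7 against 55.6 ± 2.58 CPM, was -0.14 on the log2 scale (95% interval -0.39 to 0.10, adjusted p = 0.677) and did not pass. Of all tested genes 17.9% had no overlap between these genotypes, 14.8% between the zinc finger overexpressors and 17.5% between the GmNFYA and GmZF392 overexpressors.

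The smallest p of any regulator in any of the 6 pairwise comparisons was that of WRI1A between the GmNFYA and GmZF392 overexpressors. The means were 61.3 ± 4.28 and 50.3 ± 1.7 CPM, a log2 difference of 0.29 (SE 0.11, 95% interval 0.04 to 0.53, adjusted p = 0.382). Its unadjusted p, 0.0241, is the only 1 of 54 under 0.05. WRI1B had a difference in the same direction, log2 0.25 (adjusted p = 0.524), from 45.5, 50.4 and 55 CPM in the GmNFYA and 38.5, 40.2 and 48.2 CPM in the GmZF392 libraries. In this comparison 1.06% of genes passed, in GmNFYA against GmZF351 1.1%, and in GmZF392 against GmZF351 0.4%, with 0 of the 9 regulators in each. WRI1B in the remaining genotypes was at 46.4, 45.1 and 44.7 CPM (wild type) and 45.6, 48.6 and 45.9 CPM (GmZF351).

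The bZIP factors were the least expressed. AREB3-2 (Glyma.06G314400.Wm82.a4.v1, chromosome 6, 49869992 to 49876046, plus strand, 1995 exon bases) stood in the wild type at 15.8 ± 2.92 FPKM. AREB3-1 (Glyma.04G124200.Wm82.a4.v1, chromosome 4, 15222895 to 15229112, minus strand, 2058 exon bases) stood at 11.3 ± 0.724 FPKM. The bZIP67 gene (Glyma.13G317000.Wm82.a4.v1, chromosome 13, 40520472 to 40522835, minus strand, 1483 exon bases) was lowest at 6.49 ± 0.191 FPKM, at the 54.2 percentile of tested genes.

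AREB3-1 read 21.7, 23.6 and 24.6 CPM in the wild type, 27.2, 20.4 and 23.4 CPM in the GmZF351, 23.6, 23.6 and 21.4 CPM in the GmZF392 and 22.8, 25.8 and 27.1 CPM in the GmNFYA overexpressor. AREB3-2 read 24.8, 34.2 and 35.4 CPM in the wild type, 34.8, 31.4 and 31.1 CPM in the GmZF351, 30.5, 32.8 and 29.7 CPM in the GmZF392 and 27.7, 35.5 and 30.9 CPM in the GmNFYA overexpressor. All genotypes overlapped at both copies, and the fitted differences from the wild type lay between -0.03 and 0.11 on the log2 scale.

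For bZIP67 the wild-type libraries gave 9.32, 9.69 and 9.88 CPM and the GmNFYA libraries 10.6, 10.7 and 11.2 CPM. The GmZF351 libraries spanned 7.74 to 13.2 CPM and the GmZF392 libraries 9.34 to 10.9 CPM. The GmNFYA libraries all lay above the wild type, with a log2 difference of 0.17 (95% interval -0.21 to 0.55, adjusted p = 0.737) that did not pass.

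**Figure D3:**
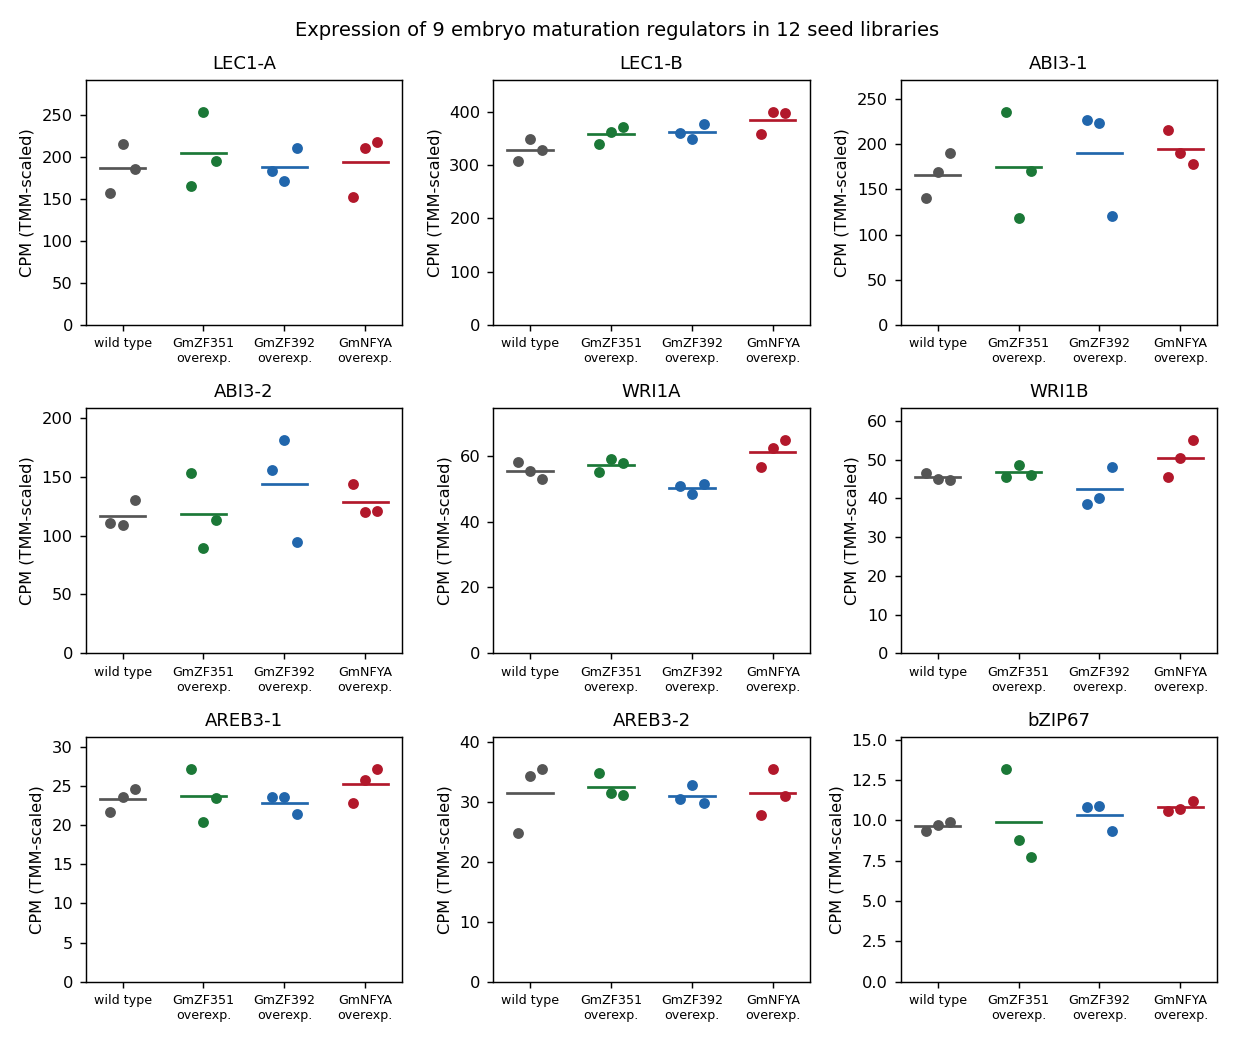
CPM of the 9 regulators in each library (points) with the mean of 3 (bars), by genotype, on axes that start at 0. The points of each overexpressor overlap those of the wild type except LEC1-B and bZIP67 in the GmNFYA and WRI1A in the GmZF392 overexpressor, and ABI3-1 and ABI3-2 show a single low library in the GmZF351 and in the GmZF392 overexpressor.

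In order of level per exon length, the wild type ran LEC1-B, LEC1-A, ABI3-1, ABI3-2, WRI1A, WRI1B, AREB3-2, AREB3-1 and bZIP67. ABI3-2 and WRI1A did not differ beyond their spread, nor did WRI1B and AREB3-2. In CPM, which is not divided by exon length, ABI3-2 stood at 117 ± 11.7 and WRI1A at 55.6 ± 2.58. By the same measure WRI1B stood at 45.4 ± 0.875 and AREB3-2 at 31.5 ± 5.83.

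The share of each copy in its pair varied little between libraries, and most at LEC1. LEC1-A supplied 30.7% ± 2.73 of the LEC1 level per length (SD over 12 libraries). It ranged from 25.9% in GmNFYA library 1 to 36.7% in GmZF351 library 2, the ends of the exon-length order. The part of that trend in the share was not tested. ABI3-1 supplied 63.7% ± 2.01 of the level of ABI3. WRI1A supplied 60.2% ± 1.23 of WRI1 and AREB3-1 42.2% ± 2.29 of AREB3. In 12 tests of an overexpressor against the wild type the share moved by at most 2.63 percentage points, and exact two-sided permutation tests gave p from 0.2 to 1 (1 after adjustment), where 0.1 is the smallest p that 3 against 3 libraries allow. Copies of a pair are alike in sequence, so fragments that align to both may be split or lost between them.

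**Figure D4:**
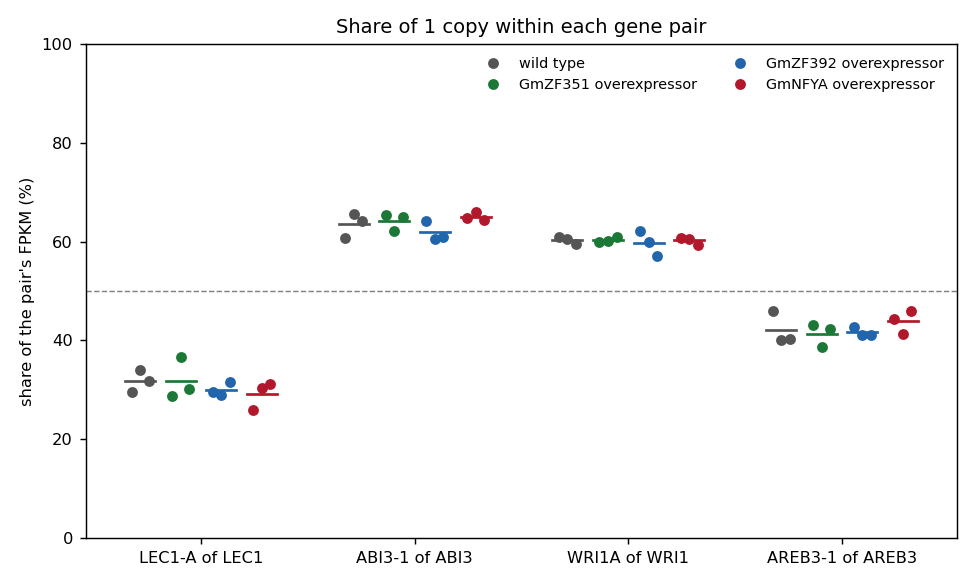
Share of 1 copy in the summed FPKM of its pair, for 12 libraries by genotype (points) with the mean of 3 (bars); the dashed line marks 50%. LEC1-A and AREB3-1 lie below the line and ABI3-1 and WRI1A above it in every library of all genotypes.

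Across the 12 libraries the ABI3 copies moved together most closely (Pearson r of log2 CPM 0.93), followed by the WRI1 (0.84), LEC1 (0.57) and AREB3 copies (0.56). Taken as deviations from the genotype means, the order was ABI3 (0.96), LEC1 (0.85), WRI1 (0.67) and AREB3 (0.62). Of all tested genes outside the 9, the nearest to ABI3-1 was Glyma.10G140900 (r = 0.98) and the nearest with a symbol GRF19 (0.95); for ABI3-2 they were Glyma.02G302000 (0.98) and DRB2B (0.96). The nearest with a symbol were GMP1 for LEC1-A (0.94), MYB124 for LEC1-B (0.88), R1 for WRI1A (0.82) and TUBG2 for WRI1B (0.87). IQD55 was nearest to both AREB3-1 (0.93) and bZIP67 (0.79), and MKK4 to AREB3-2 (0.90). These values describe 12 libraries that share depth and the exon-length trend, and each was picked as the highest among the tested genes, or among those with a symbol.

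Storage proteins are a gene class that these factors are known to control. Of 10 storage globulin genes tested, 5 rose in each overexpressor and 0 fell, where 1.13%, 1.67% and 0.966% of all tested genes rose, with medians of log2 1.37, 1.65 and 1.23 in the GmZF351, GmZF392 and GmNFYA overexpressors for the list. Their summed level was 667 ± 104 FPKM in the wild type, 1500 ± 120 in the GmZF351, 1990 ± 89.4 in the GmZF392 and 1360 ± 51.2 FPKM in the GmNFYA overexpressor. The glycinin gene GY4 rose from 1.94 ± 0.443 to 40.6 ± 7.74 CPM in the GmZF392 overexpressor (log2 4.38, adjusted p = 9.4e-08). Seed coat markers, of which 3 of 4 could be tested, summed to 460 to 564 FPKM in the wild type, 290 to 341 in the GmZF351, 365 to 404 in the GmZF392 and 334 to 351 FPKM in the GmNFYA overexpressor. Of the 3 markers, 2 fell in the GmZF351, 2 in the GmZF392 and 1 in the GmNFYA overexpressor. Of all tested genes 2.17%, 2.2% and 1.56% passed in these comparisons, in either direction. The marker other than LAR1 and VSPA, an ANR gene, passed in no overexpressor, so the lower sums need not hold for it. LAR1, an enzyme gene of proanthocyanidin synthesis, fell in each, and VSPA fell in both zinc finger overexpressors (29.8 ± 2.89 and 61.6 ± 6.83 CPM, wild type 99 ± 2.98), where the GmZF392 call ended in 2 of 13 alternatives. VSPA stood at 118 ± 8 CPM in the GmNFYA overexpressor and did not pass there. The part of these markers in the other results was not tested.

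**Figure D5:**
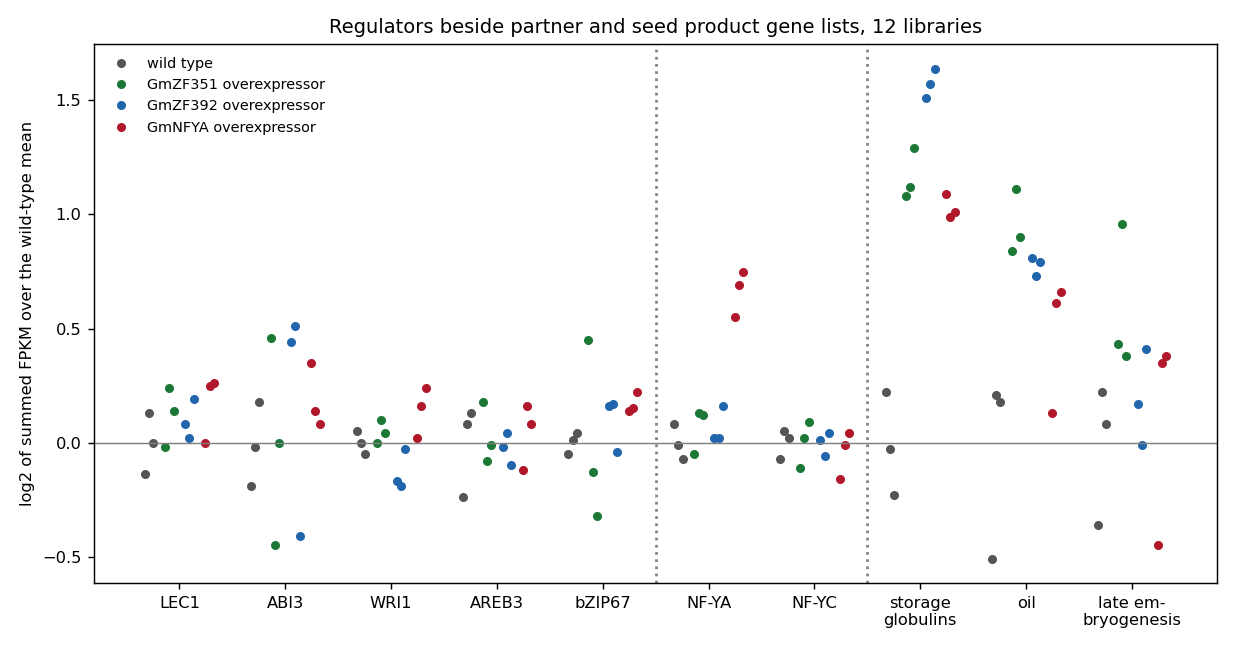
Summed FPKM of the regulators (left), of the NF-YA and NF-YC subunits (middle) and of storage globulin, oil and late embryogenesis gene lists (right), as log2 over the wild-type mean, 1 point per library. The regulators stay between -0.45 and 0.51, while storage globulins lie between 0.99 and 1.64 in the overexpressors.

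Fewer oil genes passed. Of 25 tested, 3 rose in the GmZF351 overexpressor (P91 and P89, oleosin genes, and the oleate desaturase gene FAD2-1B), 2 in the GmZF392 overexpressor (FAD2-1A and FAD2-1B) and 0 in the GmNFYA overexpressor. The shares that rose, 12%, 8% and 0%, stand beside 1.13%, 1.67% and 0.966% of all tested genes. P89 and P91 did not pass in the GmZF392 overexpressor, at 1360 to 1490 and 1260 to 1480 CPM. The wild type read 316 to 846 and 345 to 869 CPM. Medians of the list were log2 0.06, 0.12 and 0.16. Its summed level was 2050 ± 527 FPKM in the wild type. It was 3970 ± 392 in the GmZF351, 3510 ± 95.7 in the GmZF392 and 2870 ± 543 FPKM in the GmNFYA overexpressor. Only the GmNFYA range overlapped the wild type. The oleosin genes P89 and P91 carry a large part of this sum. In the GmZF351 overexpressor they stood at 1580 ± 47.6 and 1820 ± 419 CPM, where the list summed to 4950 to 5740 CPM. In the wild type they stood at 658 ± 297 and 680 ± 291 CPM, where it summed to 2300 to 3390 CPM. Wild-type library 1 was the low one, at 1440 FPKM against 2380 and 2330 in libraries 2 and 3. Late embryogenesis genes were listed by symbol alone (LEA, PM or SLE), so the list may hold other seed proteins. Of 23 tested, 3 rose in the GmZF351 overexpressor and 0 in the others. They were PM24 (log2 2.23), LEA5 (1.36) and PM34 (0.90), with adjusted p = 0.0325, 0.0188 and 0.0392. At PM24 the wild type lay near the floor of 3 counts, at 0.147 to 0.662 CPM, and the GmZF351 overexpressor at 1.57 to 1.99 CPM. LEA5 went from 47.4 ± 7.4 to 122 ± 43.6 CPM and PM34 from 72 ± 4.83 to 134 ± 25.3 CPM. The late embryogenesis shares that rose were 13%, 0% and 0% in the GmZF351, GmZF392 and GmNFYA overexpressors, beside 1.13%, 1.67% and 0.966% of all tested genes. Medians of that list were 0.45, 0.36 and 0.28. The calls of LEA5, PM24 and PM34 ended in 4, 7 and 7 of 13 alternatives, and those of P89, P91 and FAD2-1B in the GmZF351 overexpressor in 8, 7 and 2.

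Among the partners of LEC1, 24 NF-Y subunit genes were tested, and NF-YA02, which is GmNFYA itself, was the only one to pass, in its own overexpressor (41.8 ± 1.41 to 308 ± 35.1 CPM). The summed level of 17 NF-YA genes went from 228 ± 12 to 362 ± 24.8 FPKM, while 7 NF-YC genes stood at 240 ± 10.8 and 233 ± 16.3 FPKM and LEC1 at 523 and 591 FPKM. The LEC1 copies together were higher than the 17 NF-YA genes together in each genotype.

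A list of other regulators, formed by symbol, held ABI5, AGL15 and otherwise only genes with a bZIP symbol. It held no gene under the symbols LEC2, FUS3, L1L, ABI4 or BBM, so it describes bZIP genes rather than embryo regulators at large. Of its 66 tested genes, 0 passed in the GmZF351, 2 rose in the GmZF392 and 1 rose in the GmNFYA overexpressor. Medians were log2 0.02, -0.02 and -0.02. The shares that rose, 3.03% and 1.52%, stand beside 1.67% and 0.966% of all tested genes. ABI5, a bZIP factor of the abscisic acid response, read 5.3, 6.48 and 8.11 CPM in wild-type seeds and 12.2, 13.5 and 13.3 CPM in the GmZF392 overexpressor (log2 0.97, adjusted p = 0.019). In the GmNFYA overexpressor it read 10.8, 13.1 and 13.3 CPM (log2 0.91, adjusted p = 0.038), and in the GmZF351 overexpressor 12.6, 7.47 and 10.3 CPM. Both sets of ABI5 libraries lie above the wild type, but the calls ended in 5 of 13 alternatives each, with adjusted p up to 0.0921 and 0.167 when single libraries were left out.

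BZIP105 rose in the GmZF392 overexpressor alone of the 3, from 2.8, 2.49 and 1.6 to 10.4, 7.79 and 8.8 CPM (log2 1.96, SE 0.27, adjusted p = 9.3e-04). Against the GmZF351 and GmNFYA overexpressors the GmZF392 libraries were also higher, by log2 2.12 (adjusted p = 0.00189) and with a GmNFYA minus GmZF392 difference of -2.37 (adjusted p = 4.6e-04). This call held under all 13 alternatives.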

How the data were processed

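Seed RNA of 12 libraries was measured, 3 for each of 4 genotypes. The authors deposited raw counts per gene, which per the file headers come from featureCounts 2.0.1 with paired fragments and exons summed by gene; HISAT2 and DESeq2 are named in the submitters' processing notes. No strand or multimapping option is recorded. Gene lengths (exon bases) are also as deposited by the authors. The table holds 0 columns of other samples. Whether libraries came from separate plants is not stated, so p-values reflect only the spread among the samples, possibly a technical one. The floors of 3 counts cover counting error only, while the intervals of fold changes include the spread between libraries.

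The test was that of edgeR 4.0.16 in R 4.3.3 (TMM scaling, filterByExpr with a minimum count of 10 and total of 15, robust quasi-likelihood test, all 12 libraries in 1 fit). P-values were adjusted over 34252 genes at 0.05. The 95% intervals are the log2 fold change plus or minus the t quantile times its standard error. CPM and FPKM are scaled by TMM factors. DESeq2 1.42.0 was an alternative. The test was checked on simulated counts that held no exon-length trend, so that check does not cover the trend. Names come from RefSeq genes of Glycine_max_v4.0 sharing 50% or more of the joint span: 38292 of 47095 genes (81.3%) were paired and 2205 have a symbol, among them 8 of the 9 regulators; the name bZIP67 comes from how the genes were chosen. Coordinates come from the deposited table. The 9 genes and all lists were chosen with earlier results of these data known. Named genes are the 9, for each the most similar tested gene and the most similar with a symbol (Pearson r of log2 CPM, prior count 2), and at most 3 called genes with the largest fold change per list and comparison. Same-numbered libraries did not consistently deviate together (18 pairs, r from -0.50 to 0.42, 7 over 0.1), so numbers were not taken as pairs. No pair of libraries within a genotype agreed within sampling noise.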

Additional observations from a re-analysis of the deposited data

How the results depend on the processing

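For the 9 regulators, 54 results were recomputed in 702 alternative values, of which 0 passed the threshold; log2 values ran from -0.39 to 0.53, the lowest adjusted p was 0.123, and 76 values had the other sign than the reported one, uncalled in both. Counts over all genes were more sensitive. With exon-length offsets they were 1284 (GmZF351 against wild type), 1157 (GmZF392 against wild type), 235 (GmZF392 against GmZF351), 726 (GmNFYA against GmZF351) and 1837 (any genotype), against 744, 752, 137, 376 and 1152. With only the compared genotypes in the fit they were 368 (GmZF351 against wild type), 69 (GmZF392 against GmZF351) and 123 (GmNFYA against GmZF351). With the DESeq2 Wald test they were 1231, 1135 and 954 against the wild type (GmZF351, GmZF392, GmNFYA), 342 (GmZF392 against GmZF351), 905 (GmNFYA against GmZF351), 662 (GmNFYA against GmZF392) and 2252 (any). With both low-ABI3 libraries left out, a step added after seeing the data, 848 genes passed in GmNFYA against wild type, where 536 did. Leaving out 1 library at a time gave 392 to 575 (GmZF351 against wild type), 448 to 606 (GmZF392), 300 to 385 (GmNFYA), 64 to 112 (GmZF392 against GmZF351), 163 to 368 (GmNFYA against GmZF351), 198 to 273 (GmNFYA against GmZF392) and 745 to 1156 (any); the lowest counts came without wild-type library 3 (GmZF351 against wild type), wild-type library 2 (GmZF392 against wild type and any), wild-type library 2 or GmNFYA library 2 (GmNFYA against wild type), GmZF351 library 3 (GmZF392 against GmZF351) and GmNFYA library 2 (both other comparisons). Copy shares by counts without division by length were 34.9% (LEC1), 58.7% (ABI3) and 54.9% (WRI1), and leaving out single libraries put the shares per length at 30.1% to 31.1% (LEC1), 63.4% to 64% (ABI3), 60% to 60.4% (WRI1) and 41.9% to 42.6% (AREB3). Fewer libraries enter the fits that leave some out. The cause of the shifts was not tested. The regulators all lay above the floor of 3 counts in every library.

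Adding a replicate block to the fit gave counts of 645, 659 and 510 against the wild type (GmZF351, GmZF392, GmNFYA), 117, 350 and 326 between overexpressors and 1025 for any genotype. The ABI5 call in the GmNFYA overexpressor ended under this block (adjusted p = 0.0505), as did BZIP90 between the GmNFYA and GmZF351 overexpressors (0.0645). The libraries share only a number.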

Other observations

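LEC1-A, AREB3-2 and the summed late embryogenesis genes had the same 2 lowest libraries, wild type library 1 and GmNFYA library 1. LEC1-A stood there at 157 and 152 CPM, AREB3-2 at 24.8 and 27.7 CPM and the late embryogenesis sum at 614 and 576 FPKM, where the next lowest library gave 783 FPKM. Summed oil genes were also lowest in these libraries, at 1440 and 2250 FPKM. These libraries belong to different genotypes but share the number 1. As deviations from the genotype means their correlation was 0.42, the highest of the 18 same-numbered pairs. A pair of unlike number, GmZF351 library 2 and GmZF392 library 3, had 0.57.

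BZIP90 (Glyma.13G316900, chromosome 13, 40511384 to 40518996, plus strand) ends 1475 bases from bZIP67, on the opposite strand, and was named here after its values were seen. It stood at 5.03 ± 0.51 CPM in the wild type, 3.93 ± 0.0903 in the GmZF351, 3.76 ± 0.342 in the GmZF392 and 6.78 ± 0.826 CPM in the GmNFYA overexpressor. The GmNFYA overexpressor was higher than the GmZF392 overexpressor (log2 0.85, adjusted p = 0.0233) and the GmZF351 overexpressor (log2 0.79, adjusted p = 0.0396) but no difference from the wild type passed (adjusted p from 0.302 to 0.442). The calls ended in 6 and 10 of 13 alternatives. bZIP67 itself was not called in any of these comparisons.

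BZIP104 was lower in the GmNFYA than in the GmZF392 overexpressor (1.86 ± 0.271 against 5.3 ± 1.12 CPM, log2 -1.51, adjusted p = 0.00263), as was BZIP105.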
